A study of Mus musculus with 7 samples.

Results

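D-type cyclins bind CDK4 and CDK6, and the active kinases phosphorylate RB1, which then releases E2F factors and lets the genes of DNA replication be transcribed. INK4 proteins (p16 from Cdkn2a, p15 from Cdkn2b) block CDK4 and CDK6 directly, whereas Cip/Kip proteins (p27 from Cdkn1b, p57 from Cdkn1c) bind cyclin and kinase complexes more widely. In the mammary gland, cyclin D1 is known as a target of estrogen and growth factor signalling and as a requirement for alveolar growth in pregnancy. The levels of 10 genes of this step (Ccnd1, Ccnd2, Ccnd3, Cdk4, Cdk6, Cdkn1b, Cdkn1c, Cdkn2a, Cdkn2b and Rb1) were examined on 7 CodeLink Mouse Whole Genome arrays of cultured mouse mammary gland. They were found through the RefSeq accession of each gene probe, and 9 of the 10, out of 13971 genes with a probe so named, had 1 probe each; no probe was matched to Cdkn1b.

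The study asked how estrogen receptors alpha and beta shape growth and carcinogen-induced lesions in mammary gland organ culture. Its 3 arrays held glands of αERKO mice (Esr1 knockout) and βERKO mice (Esr2 knockout), both on a C57BL6/129SV background, and of WT C57 mice, all after 24 days of culture, with RNA of 5 mice pooled per array. Another 4 arrays held WT C57 glands without DMBA (7,12-dimethylbenz[a]anthracene, a polycyclic aromatic carcinogen) after 10 days and after 24 days, and Balb/c glands after 24 days without and with Vitamin D5, of unstated dose. Donors were 4 weeks old, and were pretreated with 1 mg progesterone, joined either by 1 µg estrogen over 9 days or by 25 ng EGF over 5 days. For its own WT and knockout arrays the study names EGF with progesterone, while for the others the sources used here do not say which was given. All glands were cultured with insulin, prolactin, aldosterone and hydrocortisone for a growth phase of 10 days, followed in the 24-day glands by 14 days with insulin only. The protocol gave DMBA at 2 µg/ml for 24 h on day 3, and the study describes its WT and knockout arrays as holding glands so treated, although DMBA stands in the title of the WT sample and of neither knockout. For the Balb/c arrays the titles do not say. The study's methods both list αERKO among the array groups and say that its lesion-free glands were not carried into molecular work, yet an array so titled was deposited and the study's text elsewhere describes RNA of such glands. The study describes the WT and βERKO glands on its arrays as bearing DMBA-induced lesions and the αERKO glands as free of them. Each group had 1 array, so no difference was tested. Knockout and strain background could not be told apart, nor could loss of ERα and the lack of lesions.

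A level is given as the log2 of a spot's intensity over the median intensity of all gene probes on its array, and a difference between arrays as a log2 ratio. A spot counted as detected where the scanner software called it good, and as near background where the software gave that call. Between 68.4% and 74.2% of gene probes were good on each array, over a median intensity between 39.1 and 53.0 and a median local background between 80 and 83. As a measure of error, the SD of log2 ratios between paired probes of the same accession was taken for each pair of arrays. It ran from 0.20 to 0.69 over the 21 pairs and exceeded 0.57 for each pair with the αERKO array. This SD covers error between probes and not variation between animals. Esr1 was near background in αERKO glands and on 4 further arrays, whereas Esr2, at 0.87, was at its highest level on the array of βERKO glands, against the label, so that it is called the βERKO-labelled array here.

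The promoters of the neighbouring genes Cdkn2a and Cdkn2b are shown because Cdkn2b was lowest and Cdkn2a highest on the αERKO array. Since Cdkn2a was good on the αERKO array only, its direction there is no separate result. That of Cdk4 is shown because it was the kinase detected on all arrays. The promoters are 300-base windows, from 250 bases before to 50 after the transcription start. They were taken from the RefSeq table of build GRCm38.p6, which held 6 of the 10 genes. In the first 3, capitals mark the GC box (GGGCGG, or CCGCCC on the other strand), and in Cdk4 they mark the E-box CACGTG, which reads the same on both strands.
Cdkn2b, chr4:89310983-89311282, minus strand: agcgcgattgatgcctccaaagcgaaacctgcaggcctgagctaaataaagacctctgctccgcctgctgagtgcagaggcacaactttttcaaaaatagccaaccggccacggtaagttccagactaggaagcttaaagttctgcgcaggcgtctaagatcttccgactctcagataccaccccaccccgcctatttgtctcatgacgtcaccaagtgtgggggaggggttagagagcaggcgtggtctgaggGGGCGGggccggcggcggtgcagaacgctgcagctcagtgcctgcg
Cdkn2a, first start, chr4:89294570-89294869, minus strand: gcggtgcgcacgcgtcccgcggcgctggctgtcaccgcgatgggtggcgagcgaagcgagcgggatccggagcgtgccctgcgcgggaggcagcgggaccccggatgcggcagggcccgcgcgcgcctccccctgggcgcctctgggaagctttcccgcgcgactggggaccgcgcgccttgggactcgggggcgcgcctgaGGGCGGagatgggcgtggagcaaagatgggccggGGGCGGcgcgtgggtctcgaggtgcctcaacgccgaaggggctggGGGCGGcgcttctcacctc
Cdkn2a, second start, chr4:89282143-89282442, minus strand: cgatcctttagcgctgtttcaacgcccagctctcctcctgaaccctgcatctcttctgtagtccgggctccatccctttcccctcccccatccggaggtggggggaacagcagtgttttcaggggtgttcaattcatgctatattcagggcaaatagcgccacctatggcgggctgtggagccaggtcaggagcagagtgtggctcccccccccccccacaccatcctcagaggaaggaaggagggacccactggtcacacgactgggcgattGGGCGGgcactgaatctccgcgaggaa
Cdk4, chr10:127063285-127063584, plus strand: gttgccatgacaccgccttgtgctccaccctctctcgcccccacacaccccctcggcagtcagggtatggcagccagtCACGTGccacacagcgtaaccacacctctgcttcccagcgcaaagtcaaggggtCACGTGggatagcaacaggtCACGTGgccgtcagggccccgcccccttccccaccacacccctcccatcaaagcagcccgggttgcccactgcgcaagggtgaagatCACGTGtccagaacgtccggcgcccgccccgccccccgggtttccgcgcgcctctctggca
The Cdkn2b window held 1 GC box, and the windows of the first and second Cdkn2a start held 3 and 1. Of all 32851 promoter windows, 35.7% held at least 1 GC box and 10.7% held 3 or more. The first Cdkn2a start also held 1 E2F site of the form TTTCCCGC (GCGGGAAA on the other strand), which 1.07% of windows held, and none of these 4 windows held the form TTTGGCGC (GCGCCAAA). The Cdk4 window held 4 E-boxes, which 8 of the 32851 windows (0.0244%) matched or exceeded, while 7.15% held at least 1. It also held 3 GC boxes, printed in lower case, and no match of one motif overlapped that of another in these windows. These matches describe the letters of the windows and are not evidence of binding. Which of the Cdkn2a starts the array's probe reports is not given in the sources used here.

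Of the D cyclins, Ccnd1 (cyclin D1) covered the widest range. Its log2 level was 1.80 on the Balb/c array with Vitamin D5, 1.57 on the Balb/c array, 1.51 on the WT 10-day array, 0.80 on the βERKO-labelled array, -0.26 on the WT array with DMBA, -0.37 on the WT 24-day array without DMBA and -2.00 on the αERKO array, where its spot was near background. Neighbours among the first 3 arrays did not differ beyond 1 SD, although the WT 10-day array lay below the Balb/c array with Vitamin D5 by more than that (a log2 ratio of -0.29, beside an SD of 0.20). The WT arrays of 24 days did not differ beyond 1 SD either, and the αERKO array stood below all others. Relative to the αERKO array, Ccnd1 was at least 2.32-fold higher on the WT array with DMBA, at least 4.80-fold higher on the βERKO-labelled array and at least 9.61-fold higher on the Balb/c array with Vitamin D5.

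Ccnd2 (cyclin D2) divided the arrays differently. Its log2 level was 5.08 on the WT array with DMBA, 4.81 and 4.78 on the βERKO-labelled and αERKO arrays, against 3.33 on the Balb/c array with Vitamin D5, 2.97 on the WT 10-day array, 2.92 on the WT 24-day array without DMBA and 2.33 on the Balb/c array. All 3 arrays of the study lay above all 4 others, with a gap of 1.46, and did not differ among themselves beyond 1 SD. Ccnd3 (cyclin D3) varied less. It was highest on the WT array with DMBA at 2.69 and lowest on the Balb/c array at 0.94, and the other 5 arrays lay between 1.47 and 2.01, with no pair of neighbours in that order differing beyond 1 SD. Among these 5, the WT 24-day array without DMBA still lay above the WT 10-day array by more than 1 SD (0.45, beside an SD of 0.24).

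Cdk4, the main catalytic partner of the D cyclins in most tissues, was well detected on every array. Its log2 level was 3.92 on the αERKO array, 0.68 below the next, and lay between 4.60 and 5.18 on the other 6 arrays. No neighbours in the order of those 6 differed beyond 1 SD, although arrays further apart did. For example, the WT array with DMBA (4.60) lay below the WT 10-day array (5.15, SD 0.31) by more than that. It also lay below the Balb/c array with Vitamin D5 (5.18, SD 0.34) by more than 1 SD. Cdk6 was dim: it lay near background in αERKO glands, at -1.34, and between -0.51 and 0.45 on the others, highest on the WT 10-day array. Over the 7 arrays, the Cdk4 level correlated with that of Ccnd1 at Pearson's r = 0.93, given as a description of arrays of which 5 were C57 or mixed C57 glands.

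**Figure D1:**
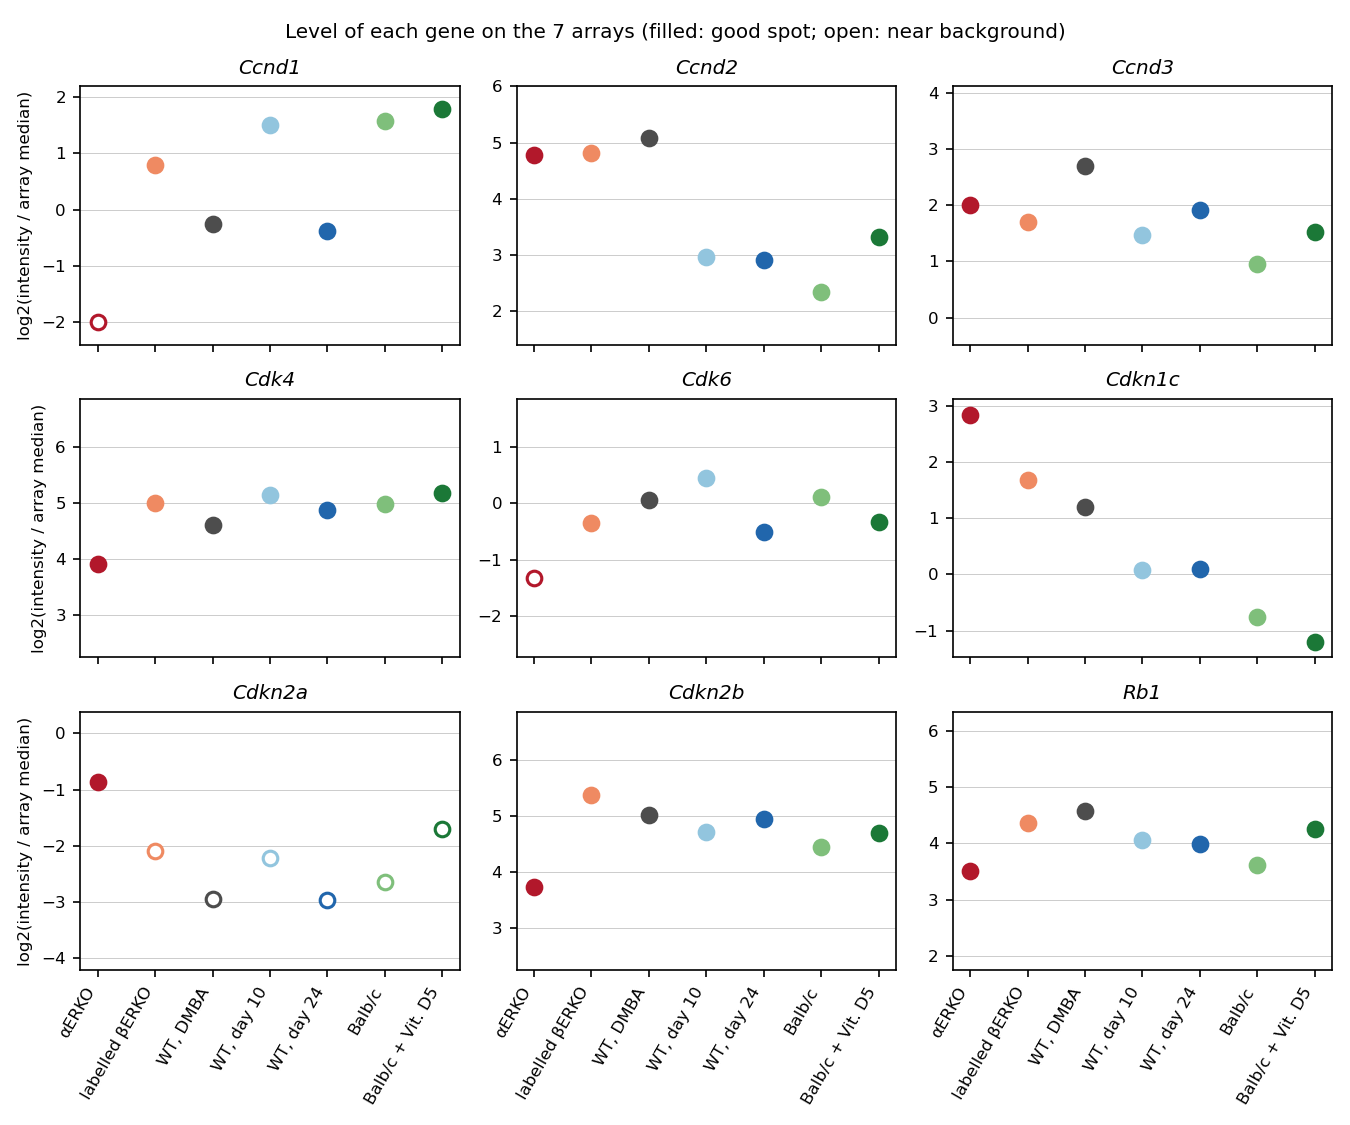
Level of each of the 9 genes on the 7 arrays, as log2 of intensity over the array's median, with filled circles for good spots and open circles for spots near background; 1 array per group, and each panel's axis spans the same number of log2 units. Ccnd1 and Cdk6 are near background on the αERKO array, Ccnd2 and Cdkn1c are higher on the αERKO, βERKO-labelled and WT with DMBA arrays than on the other 4, and Cdkn2a is good on the αERKO array only.

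Cdkn1c, which encodes p57, an imprinted Cip/Kip inhibitor, had the widest range of the genes detected on all 7 arrays. Its log2 level was 2.84 on the αERKO array, 1.68 on the βERKO-labelled array, 1.20 on the WT array with DMBA, 0.10 and 0.07 on the WT arrays without DMBA after 24 and 10 days, -0.75 on the Balb/c array and -1.19 on the Balb/c array with Vitamin D5. From the top to the bottom of this order the difference was 16.4-fold, and 5 of the 6 steps exceeded 1 SD. Only the WT arrays without DMBA did not differ beyond it. The level of Cdkn1c correlated with that of Ccnd1 at r = -0.82 and with that of Ccnd2 at r = 0.82 over the 7 arrays, as a description.

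Cdkn2b, which encodes p15, the INK4 protein induced by TGF-beta in epithelial cells, was bright on every array. Its log2 level was 5.36 on the βERKO-labelled array, between 4.44 and 5.01 on the 5 C57 and Balb/c arrays, and 3.74 in αERKO glands. Its neighbour Cdkn2a, which encodes p16 and, from another reading frame, p19ARF, went the other way. It was good on the αERKO array only, at -0.87, and near background on the other 6, at measured values between -2.96 and -1.70. Since Cdkn2a was measured only through the array on which it was high, it had to differ there. Rb1, the retinoblastoma protein on which the kinases act, covered the narrowest range, from 3.51 on the αERKO array to 4.57 on the WT array with DMBA, which is 2.09-fold.

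In counts over the 7 arrays, a description chosen after the values were seen, the αERKO array had the lowest level of 5 of the 9 genes (Ccnd1, Cdk4, Cdk6, Cdkn2b and Rb1), and it had the lowest level of 36.5% of 12766 genes that were good on at least 1 array and otherwise near background. It had the highest level of Cdkn1c and Cdkn2a, as of 20.9% of those genes, though Cdkn2a was good on that array only. The WT array with DMBA was highest for Ccnd2, Ccnd3 and Rb1 (11.2% of genes), the Balb/c array lowest for Ccnd2 and Ccnd3 (21.4%) and its counterpart with Vitamin D5 highest for Ccnd1 and Cdk4 (11.5%). Both Balb/c arrays lay above all 5 others for Ccnd1, as for 4.38% of genes, and below all 5 for Cdkn1c, as for 12.6%. Several of these ranks rested on gaps within 1 SD. Rb1 on the αERKO array was 0.11 below the Balb/c array (SD 0.60). On the WT array with DMBA, Ccnd2 and Rb1 led by 0.27 and 0.21 (SD 0.38 each). On the Balb/c array with Vitamin D5, Ccnd1 and Cdk4 led by 0.22 (SD 0.23) and 0.03 (SD 0.20). Ccnd1 on the Balb/c array was 0.06 above the WT 10-day array (SD 0.22).

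The first comparison set glands without ERα, described as lesion-free, against WT glands described as bearing lesions. Between the αERKO array and the WT array with DMBA, 6 of 9 genes differed over 2-fold, where 25.5% of 12073 genes did. Higher on the αERKO array were Cdkn1c, 3.13-fold, and Cdkn2a, at least 2.00-fold, where 10.3% of genes were over 2-fold higher. Lower were Ccnd1, at least 2.32-fold, Cdk6, at least 2.65-fold, Cdkn2b, 2.41-fold, and Rb1, 2.09-fold, where 15.3% of genes were over 2-fold lower. The 4 lower genes were thus 1 D cyclin, 1 kinase, 1 INK4 inhibitor and Rb1. Of the 2 higher genes, Cdkn2a was measured only through the αERKO array, so its call as higher is no separate result. The log2 ratios of Ccnd2, Ccnd3 and Cdk4 were -0.30, -0.69 and -0.68, beside an SD of 0.61. The median log2 ratio of the 9 genes was -0.69, against -0.17 over all genes. Only 3 of the 6 calls (Cdkn1c, Cdkn2b and Rb1) rested on spots good on both arrays, and these were also the 3 that stayed over 2-fold with normexp background correction, which adds an offset and so shrinks ratios of dim spots. Rb1 was under 2-fold when arrays were scaled to their 75th percentile or quantile normalized.

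Other CDK inhibitor genes differed on the αERKO array as well. Cdkn1a, which encodes p21, a p53 target, was at a log2 level of 1.48 on the αERKO array and between 6.99 and 7.79 on the 5 C57 and Balb/c arrays, which made it 45.7-fold lower than on the WT array with DMBA. On the βERKO-labelled array its spot was called contaminated and was left out. Cdkn2c, which encodes the INK4 protein p18, was 3.41-fold higher on the αERKO array than on the WT array with DMBA. Its log2 levels on the αERKO, βERKO-labelled and WT with DMBA arrays were 7.37, 6.11 and 5.60, against 2.64 to 3.65 on the other 4, the same division of arrays as for Ccnd2 and Cdkn1c. Cdkn2d (p19 INK4d) had a log2 ratio of 0.93.

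**Figure D2:**
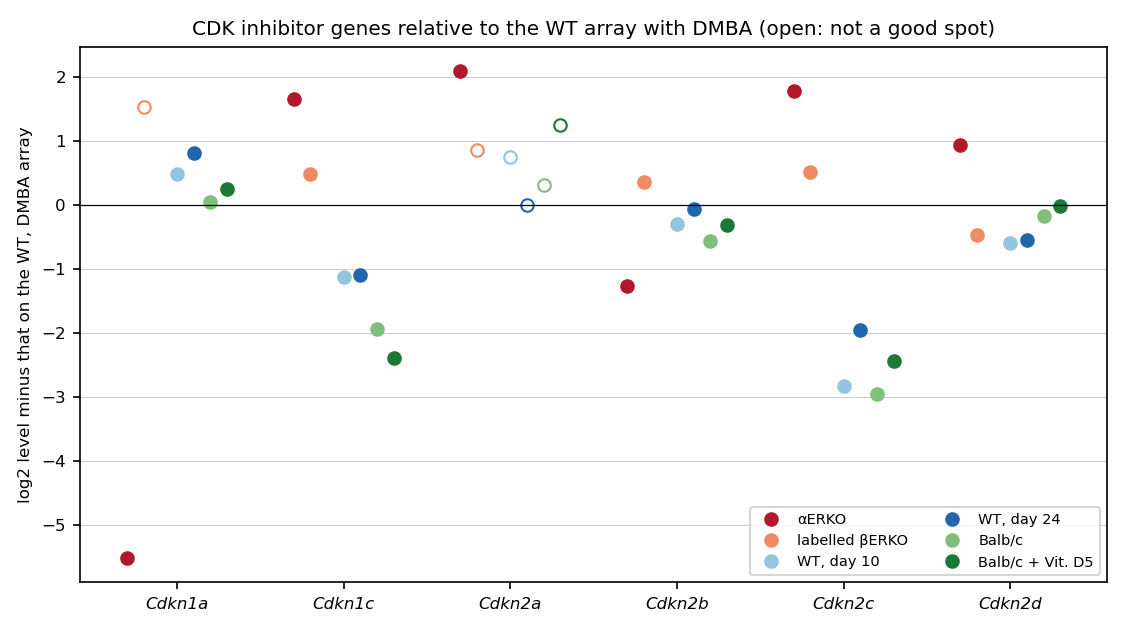
log2 level of 6 CDK inhibitor genes on 6 arrays minus the level on the WT array with DMBA (line at 0); filled circles are good spots, and open circles are spots near background or, for Cdkn1a on the βERKO-labelled array, called contaminated; on the reference array Cdkn2a was itself near background. On the αERKO array Cdkn1a and Cdkn2b lie below the line, at -5.51 and -1.27, and the other 4 genes above it.

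Few genes downstream of the kinases differed over 2-fold on the αERKO array. Of 10 measured RB family and E2F factor genes, none was over 2-fold higher or lower than on the WT array with DMBA (median log2 ratio -0.13). None of 9 genes listed with cyclins E and A and CDK2 was either (-0.40), a list that also holds Cdc25a, Cdk7, Ccnh and Mnat1. Of 19 replication genes known as E2F targets, 1 was higher (Cdc6, a loader of the replicative helicase, 1.13) and 0 lower, and of 14 mitotic genes 0 were higher and 1 lower (Nek2, a centrosome kinase, at least 2.24-fold). Among 23 genes of mitogen and hormone signals to cyclin D1, 13 were lower, where 15.3% of all genes were, and 1 higher, with a median of -1.28. The lower genes include Esr1, the gene targeted in αERKO mice. On the αERKO array Esr1, Igf1r, Tnfrsf11a, Fosl1, Tcf7l2 and Foxo3 were near background. Tnfsf11, which encodes RANKL, the progesterone-induced paracrine signal, had a log2 ratio of -3.95, and Cebpb, a factor of mammary epithelial growth, one of -2.14, while the growth factor Igf2 was higher at 2.04. The Tnfsf11 level on the αERKO array, 1.37, was set against 5.32 on the WT array with DMBA. It was below that on the WT 24-day array without DMBA (2.45) and above that on the Balb/c array (-1.38). On the βERKO-labelled, WT 10-day and Vitamin D5 arrays Tnfsf11 was near background. Counts in the remaining lists are small and are given for their single genes, since 25.5% of all genes differed as much. Of 17 genes connected with the INK4-ARF locus, 4 were lower and 2 higher. Lower were Trp53 at -1.83, Kdm6b and Dmtf1 at -1.03 each and Mdm2, at least 3.01-fold. Higher were Cbx7, a Polycomb repressor of the locus, at 1.64 and Twist1 at 1.04. Of 8 genes of TGF-beta inputs to the inhibitors, 2 were lower and 0 higher, Smad4, a transducer of TGF-beta signals, at -2.54 and the ligand Tgfb1 at -1.52. Of 13 genes of cyclin D1 and p27 turnover, 1 was higher (Ambra1, a substrate receptor for D cyclins, 1.12) and 0 lower.

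Markers of other cell types also differed on the αERKO array. All 12 skeletal muscle markers measured were over 2-fold higher than on the WT array with DMBA, and their summed level was 2559 array medians, against 11.9 to 56.0 on the other 6 arrays. Of luminal epithelial markers, 7 of 14 were lower and 1 higher, and their summed level was 681, against 1012 to 1801 on the others. Of basal and myoepithelial markers 5 of 7 were lower, with a summed level of 140, against 290 to 840. Lymphocyte markers summed to 61.3, against 12.5 to 16.0, and adipocyte markers to 4092, against 327 to 2406. Macrophage markers were lower for 4 of 5 and had their lowest sum there, 66.5 against 121 to 303. Stromal markers were higher for 4 of 9 and lower for 1, with their highest sum, 423 against 22.7 to 246. In whole glands, fewer cells of a type and less RNA per cell cannot be told apart, and the part of these cell types in the levels of the cyclin and inhibitor genes was not tested.

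**Figure D3:**
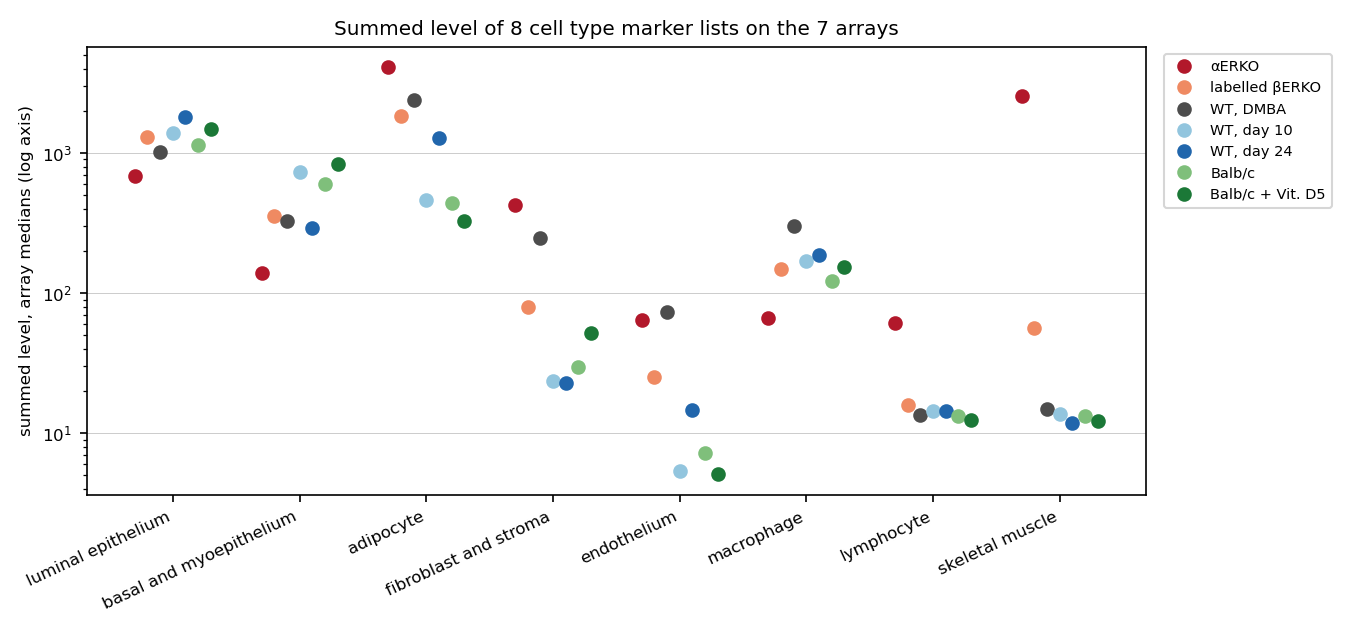
Summed level of the measured markers of 8 cell types on each of the 7 arrays, in multiples of the array's median intensity on a log axis; 1 point per array. The αERKO array has the lowest luminal sum (681) and basal sum (140) and a skeletal muscle sum of 2559, where the other arrays have at most 56.0.

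For the βERKO-labelled array against WT with DMBA, 1 of 8 measured genes differed over 2-fold, where 13.9% of 11976 genes did. This was Ccnd1, 2.07-fold higher, with 6.56% of genes over 2-fold higher and 7.30% lower. Ccnd3 was just inside the threshold at 1.99-fold lower. When arrays were scaled to their 75th percentile or quantile normalized, Ccnd3 passed 2-fold and Ccnd1 did not, and with normexp background correction neither did. The other log2 ratios ran from -0.42 (Cdk6) to 0.48 (Cdkn1c) beside an SD of 0.38, and the median of the 8 genes was 0.07, against 0.14 over all genes. Downstream, none of 19 replication genes, 15 mitotic genes or 9 genes listed with cyclins E and A and CDK2 was over 2-fold different. Rbl2, which encodes the RB relative p130, was lower at -1.10. Of 24 mitogen signal genes 2 were higher, Fosl1, an AP-1 subunit, at 2.54 and Esr2 itself, and 3 were lower, Tcf7l2 (-1.60), the RANKL receptor gene Tnfrsf11a (-1.38) and Tnfsf11, near background and at least 123-fold lower. Of 17 genes connected with the INK4-ARF locus, 1 was higher, Mdm2 (1.17). Beside these values, stromal markers were lower for 6 of 9, endothelial for 6 of 7 and adipocyte for 4 of 9, and skeletal muscle markers were higher for 6 of 9; their part was not tested.

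The αERKO array was also set directly against the βERKO-labelled array, a comparison that shares an array with each of the previous ones. Of 9 genes, 5 were over 2-fold different, where 32.0% of 11886 genes were (11.8% higher and 20.2% lower). Lower on the αERKO array were Ccnd1, at least 4.80-fold, Cdkn2b, 3.08-fold, and Cdk4, 2.10-fold, and Cdkn1c was 2.24-fold higher. Cdkn2a, again measured only through the αERKO array, counted as higher by its measured ratio, but its bound was at least 1.68-fold. The bound for Cdk6 was at least 1.97-fold lower, and the log2 ratio of Rb1 was -0.85, while those of Ccnd2 (-0.03) and Ccnd3 (0.31) lay within the SD of 0.58. Of all called genes 36.9% were higher on the αERKO array, and 47.4% under 75th percentile scaling, under which Cdk4 was no longer over 2-fold. With normexp background correction, Cdk4 and Cdkn2b stayed over 2-fold lower, while Ccnd1, Cdkn1c (0.87) and Cdkn2a did not pass. Of the pathway's other genes, 12 of 23 mitogen signal genes were lower and 2 higher, with Myc at -2.20. Myc had a log2 level of 2.51 on the αERKO array and of 3.86 to 5.15 on the other 6. Of 18 replication genes 4 were lower (Mcm2, Mcm7, Tyms and Rrm2) and of 14 mitotic genes 3 were (Aurkb, Kif11 and Nek2), with none higher. Both Cdkn2c (1.26) and Cdkn2d (1.40) were higher. Beside these values, 12 of 12 skeletal muscle, 8 of 9 stromal, 6 of 8 lymphocyte, 5 of 9 adipocyte and 4 of 7 endothelial markers were higher, and 9 of 13 luminal and 4 of 6 basal markers lower; their part was not tested.

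**Figure D4:**
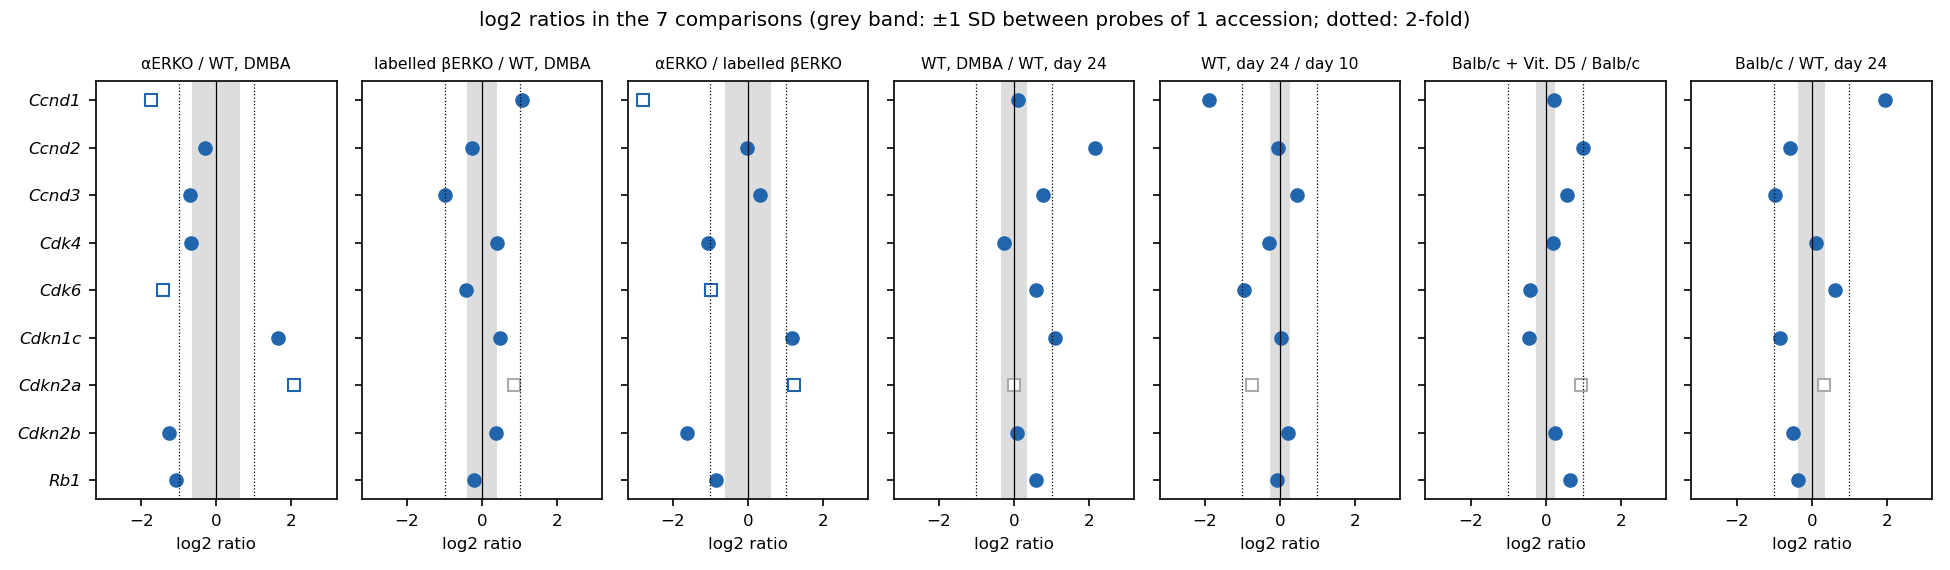
log2 ratio of each of the 9 genes in the 7 comparisons (first array over second, as named above each panel); the grey band is 1 SD either side of 0 between probes of 1 accession, dotted lines mark 2-fold, filled circles are ratios between good spots, and open squares have a spot near background on 1 array (blue) or on both (grey, not counted). Outside the dotted lines lie 6 genes in the αERKO comparison with WT and 5 in that with the βERKO-labelled array, and at most 2 in each other comparison.

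The remaining comparisons were between arrays outside the study's 3 groups or across them. In the WT glands with DMBA, the carcinogen and the lesions that the study describes cannot be told apart. For DMBA in WT glands after 24 days, 2 of 8 genes were over 2-fold higher with DMBA and none lower, where 19.4% of 12063 genes differed (11.6% higher and 7.77% lower). Ccnd2 was 4.48-fold higher and Cdkn1c 2.13-fold, although Cdkn1c fell under 2-fold with normexp background correction (log2 ratio 0.66). Of the 8 genes, 7 had ratios above 0, including Ccnd3 (0.77), Cdk6 (0.58) and Rb1 (0.58), beyond the SD of 0.31, and the median was 0.58, against -0.15 over all genes. Ccnd1 (0.12), Cdkn2b (0.07) and Cdk4 (-0.27) lay within it. Cdkn2c was higher as well, at 1.96. The S and M phase genes Ccna2 (cyclin A2, 1.72) and Cdk1 (1.64) were higher, though only 2 of 15 mitotic genes were over 2-fold higher and, of 20 replication genes, 2 were lower (Tyms and Rrm1) and 0 higher. In the same comparison 8 of 9 stromal, 7 of 7 endothelial, 7 of 9 adipocyte and 4 of 5 macrophage markers were higher and 7 of 14 luminal markers lower; their part was not tested.

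Ccnd2 and Cdkn1c shared one division of the arrays. Each was higher on all 3 arrays of the study than on all 4 others, as were 12.3% of 12766 genes, and none of the 9 genes was lower on all 3, as were 8.23%. The summed levels of stromal markers (79.3 to 423 on the 3 arrays, 22.7 to 51.8 on the others), endothelial markers (25.3 to 73.3 and 5.10 to 14.8) and adipocyte markers (1848 to 4092 and 327 to 1282) divided the arrays in the same way. Their part in the levels of Ccnd2 and Cdkn1c was not tested.

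In the comparisons of culture time and of strain, the gene over 2-fold was Ccnd1. From 10 to 24 days without DMBA it was 3.68-fold lower in WT glands, the only 1 of 8 genes over 2-fold, where 9.81% of 11796 genes differed (5.47% higher and 4.34% lower). Cdk6 was 1.95-fold lower, and passed 2-fold under 75th percentile scaling. Ccnd3 (0.45) and Cdk4 (-0.28) differed by more than the SD of 0.24, and the other 4 ratios lay between -0.07 and 0.22. Of 15 mitotic genes, 7 were lower with it, led by Cdk1 (-2.86) and Top2a (topoisomerase of chromosome segregation, -2.50), and none higher. Of 20 replication genes 5 were lower, led by Tk1 (thymidine kinase, -2.52), and 1 was higher, Rrm1, near background at 10 days. Of 9 genes listed with cyclins E and A and CDK2, 2 were lower, led by Ccna2 (-2.88), while the median of that list was 0.29. E2f8, an E2F family repressor induced in S phase, was lower at -3.17. Beside them 4 of 7 basal markers were lower and 2 higher. Of adipocyte markers 7 of 9 were higher, of endothelial 3 of 7 and of macrophage 2 of 5, and their part was not tested. Culture time and the change to insulin only after the growth phase cannot be told apart in this comparison.

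Between Balb/c and WT C57 glands at 24 days, Ccnd1 was again the only 1 of 8 genes over 2-fold, 3.85-fold higher in Balb/c, where 18.3% of 11990 genes differed (6.18% higher and 12.1% lower). Of all called genes 33.8% were higher in Balb/c, and 52.3% under 75th percentile scaling, while Ccnd1 stayed over 2-fold higher. Ccnd3 was 1.97-fold lower, Cdkn1c 1.81-fold lower and Cdk6 1.53-fold higher, beside an SD of 0.33 on the log2 scale. With Ccnd1, 9 of 16 mitotic genes were higher and none lower (median 1.25), including Cdk1 (3.60), as were 6 of 20 replication genes, including Tk1 (2.68), with 1 lower (Rrm1). Ccna2 (3.46) and E2f8 (3.43) were higher too, whereas Tnfsf11 was lower at -3.83. This comparison and that of culture time share the WT 24-day array, and strain cannot be told apart from DMBA, which the Balb/c titles leave unnamed. Of adipocyte markers 7 of 9 were lower in Balb/c, of macrophage markers 3 of 5 (1 higher), of endothelial markers 4 of 8 (1 higher) and of luminal markers 5 of 14 (2 higher), while 3 of 8 stromal markers were higher and 1 lower. Their part was not tested.

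**Figure D5:**
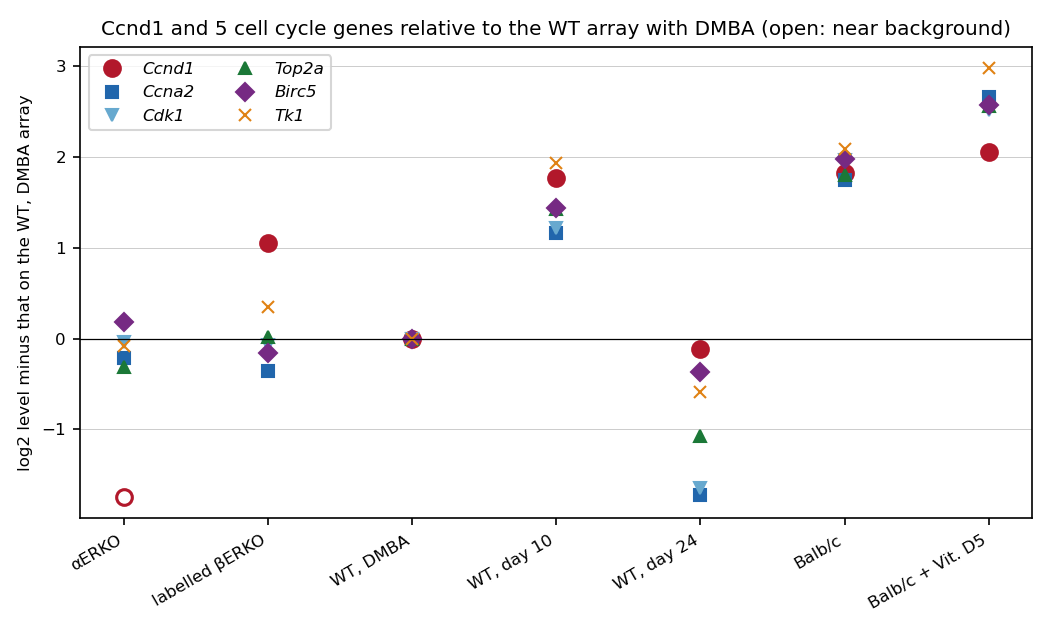
log2 level of Ccnd1 and of 5 genes of replication and mitosis (Ccna2, Cdk1, Top2a, Birc5 and Tk1, picked after their values were seen) on each array minus the level on the WT array with DMBA; 1 point per gene and array, and the open circle marks Ccnd1 near background. All 6 genes lie above 0 on the WT 10-day and both Balb/c arrays and below 0 on the WT 24-day array, while on the αERKO array Ccnd1 is at -1.74 and the others drawn lie between -0.31 and 0.19; the replication genes Cdc6 and Pole, not drawn, had log2 ratios of 1.13 and 0.74 there.

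In Balb/c glands with and without Vitamin D5, all 8 measured genes differed by under 2-fold, where 8.59% of 12020 genes were over it (4.30% higher and 4.29% lower). The nearest to the threshold was Ccnd2, 1.99-fold higher. Rb1 (0.64), Ccnd3 (0.57), Cdkn1c (-0.44), Cdk6 (-0.43) and Cdkn2b (0.24) differed by more than the SD of 0.23, and Ccnd1 (0.22) and Cdk4 (0.20) by less. The median was 0.23, against 0.16 over all genes. Of 15 mitotic genes 2 were higher, Aurka (1.07) and Plk1 (1.02), both mitotic kinases, and the median of the list was 0.70. Of 20 replication genes 2 were higher, Mcm7 (1.15) and Rrm1, near background without Vitamin D5, with a median of 0.50. Luminal markers moved in the same direction: 5 of 14 were higher and none lower (median 0.55), Krt8, a keratin, and the milk protein genes Csn2, Csn3, Lalba and Ltf. Of 9 stromal markers 3 were higher and none lower (median 0.75), and the part of these cell types was not tested.

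Among 3487 genes good on at least 6 arrays and with an SD of at least 0.5, the 5 whose levels followed Ccnd1 most closely over the 7 arrays were Cdca7 (r = 0.99), Dctd, Ereg, Car12 and Ccl20 (each 0.98). Cdca7 is known as a gene of the cell cycle induced by MYC and E2F, Dctd makes the precursor of thymidylate, and Ereg encodes epiregulin, a ligand of the EGF receptor. Each of the 5 was lowest on the αERKO array, Ereg at -0.12 and Car12 at 1.37. All but Dctd, which was highest on the WT 10-day array at 2.77, were highest on the Balb/c array with Vitamin D5. Since the 5 genes were chosen for likeness to Ccnd1, sharing its lowest and highest arrays is no separate result. On the αERKO array Ccnd1 and Ccl20 (-2.64) were near background. With 7 arrays that differ together in strain, treatment and marker levels, these values describe likeness over these arrays only.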

How the data were processed

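RNA of cultured mammary glands was hybridized by the authors to 7 CodeLink Mouse Whole Genome arrays, a 1-colour oligonucleotide platform, and analysed in GeneSpring GX. Deposited per spot are an intensity, from which the local background's median had been subtracted, and the scanner software's quality call. Intensities of 34967 gene probes were divided by the array's median and log2 was taken, with values at or below 0 (246 to 344 probes per array) set to the smallest positive value there. Through RefSeq's mouse gene table, 14763 of the 15553 probes that carry such an accession were named, for 13971 symbols. The brightest probe over all arrays stands for a gene, and the deposited tables name no genome build. The series table of normalized values was not used, since its rows carry running numbers without probe names.

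A gene was counted in a comparison where 1 or both of its spots were good and neither carried another call (irregular or contaminated, among others), and called when over 2-fold. Counts use the measured ratio, also where 1 spot was near background. A gene near background on 1 array has a bound, against the higher of that array's lowest good value and its own. No test was run, there being 1 array per group, and the number of arrays limits the precision. Nothing states that the 4 arrays outside the study's groups were of pooled mice.

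Named genes are the 10 members, up to 3 genes with the largest absolute ratio per list and comparison among probes good on both arrays, Esr1 and Esr2, and the 5 genes most like Ccnd1. Myc over all arrays, other genes of small counts (Nek2, Kdm6b, Dmtf1, Mdm2, Tnfsf11 on the βERKO-labelled array, Mcm2, Aurkb, Rrm1, Birc5 and 5 luminal markers) and the order of arrays were described after their values were seen. So were Tnfsf11 over all arrays and the mitogen signal genes near background on the αERKO array. The members, the 9 lists of cell cycle and signal genes and the 8 lists of cell markers were chosen with earlier results of these data known. Of their genes, 1 is not reported here and is in no count. Alternatives were 75th percentile scaling, quantile normalization, normexp background correction (offset 50, limma 3.58.1 in R 4.3.3), the deposited normalized intensities, probes good on both arrays, a floor at the lowest good value, the median over a gene's probes and a 1.5-fold threshold. Scripts ran in Python 3.11.15 with numpy 2.4.6 and pandas 2.3.3, and the counting was tested on simulated data.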

Additional observations from a re-analysis of the deposited data

How the results depend on the processing

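Counts of genes over 2-fold were recomputed under 8 alternatives in each of the 7 comparisons, and 45 of the 56 counts stayed within 1.5 times the first count. A count could stay while its genes changed. For the βERKO-labelled array against WT, Ccnd3 lower replaced Ccnd1 higher under 75th percentile scaling and quantile normalization. For αERKO against the βERKO-labelled array, Cdk6 replaced Cdk4 under quantile normalization. Among 378 recomputed log2 ratios of the 9 genes, 27 moved by more than the SD between probes of 1 accession. Since each of the 9 genes had 1 probe, the median over a gene's probes could change none of their ratios or counts. The deposited normalized intensities left little room for change, as they moved the median log2 ratio of all genes by at most 0.0049. Both are included in the totals. Direction was checked only for ratios first called over 2-fold, and none of these turned. With normexp background correction, 3 genes in place of 6 were over 2-fold between αERKO and WT, 2 in place of 5 between αERKO and the βERKO-labelled array, 0 in place of 1 between the βERKO-labelled array and WT, and 1 in place of 2 for DMBA. With probes good on both arrays only, the count was 3 in both of the αERKO comparisons, since fewer genes were measured. A 1.5-fold threshold gave 2 genes for the βERKO-labelled array against WT, 2 for culture time, 2 for Vitamin D5 (0 at 2-fold) and 4 for Balb/c against C57. Scaling to the 75th percentile gave 2 for culture time, with Cdk6 beside Ccnd1; the cause was not tested.

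Under 75th percentile scaling the median log2 ratio of all genes moved by 0.13 between αERKO and WT, 0.18 between αERKO and the βERKO-labelled array, -0.13 for Vitamin D5 and 0.22 for Balb/c against C57, and under quantile normalization by 0.13 and 0.19 for the second and the last of these. No paired analysis was possible because each group has 1 array and all arrays carry the same replicate number. For the same reason no replicate could be left out and no slide could be fitted as a block. Signal over background limits Ccnd1 and Cdk6 on the αERKO array and Cdkn2a on all others.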
